A study of Mus musculus with 39 samples.

Results

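The 10 genes described here make, remove, take up or read retinoic acid in mouse testis and gubernaculum. They were chosen by name as a pathway out of 21561 Ensembl genes listed in both deposited count tables. No cutoff on a measured value was used, but earlier results of these data were known when they were chosen. Rdh10, Aldh1a1, Aldh1a2 and Aldh1a3 encode enzymes of synthesis, Cyp26a1 and Cyp26b1 enzymes of breakdown, Stra6 the membrane receptor that takes up retinol bound to its carrier RBP4, and Rara, Rarb and Rarg the nuclear retinoic acid receptors. All 10 were measured in each of the 39 libraries.

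Retinoic acid is made from vitamin A in 2 oxidation steps, of retinol to retinal and of retinal to retinoic acid, and is cleared by CYP26 enzymes. It acts by binding RAR proteins, which sit on DNA as dimers with RXR proteins and switch target genes on when the ligand is present. In the testis it drives spermatogonia to differentiate and germ cells to enter meiosis, and its local level is set by Sertoli cells, germ cells and the peritubular cells around the tubule. In the Sertoli cell ALDH1A1 is the main ALDH1A enzyme, and ALDH1A2 is made by germ cells.

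The study asked how a weakened INSL3 signal, the Leydig cell hormone that guides testis descent, affects the gubernaculum and the testis. All mice were males on a C57BL/6J background: WT, INSL3-KI, in which the coding sequence of mouse Insl3 was replaced at its own locus by a cetacean INSL3 coding sequence with the mouse promoter kept, and INSL3-KO, which lack Insl3. Testis of each genotype was sequenced at postnatal day 8 (P8) and P23, and testis of WT and INSL3-KI also at P40. Gubernaculum, the ligament that guides the testis, was sequenced in each genotype at P8 and in WT and INSL3-KI at P23. Each of the 13 groups held 3 libraries. Both mutants carried their allele in every cell. The sample labels give no testis position, so these data do not separate a lack of hormone from an undescended testis. The paper reports that in INSL3-KI the first phase of descent was normal and the second was not.

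The libraries held between 29861447 and 45260372 counts, with a median of 36944626. Levels are given as FPKM, fragments scaled by transcript length and library total, which allow levels of different genes to be set side by side. Log2 fold changes come from the counts, by edgeR's quasi-likelihood test with TMM scaling, adjusted by Benjamini-Hochberg over every gene tested. They need not equal the ratio of FPKM means, because FPKM is scaled by library totals alone. Called genes are those with an adjusted p below 0.01 that differed 2-fold or more. The deposited values stand in 2 tables, and the table with all INSL3-KO libraries and WT P23 testis was made apart from the one with all other groups. Genotype and table therefore cannot be told apart in the comparisons of INSL3-KO with WT at P8, in both tissues. The same holds for INSL3-KI testis against either other genotype at P23. WT and INSL3-KI gubernaculum of P23 stand in the same table. The comparisons of a mutant with WT at P8, and those at P23, share the same WT libraries.

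Insl3 itself was at 110–139 FPKM in WT P8 testis and at 801–1100 FPKM in WT testis at P23 and P40. It was at 0.684–22.0 FPKM in the 9 INSL3-KI testis libraries and at 0–0.180 FPKM in INSL3-KO at P23. The 3 P8 testis libraries labelled INSL3-KO held Insl3 at 25.1–33.5 FPKM (613–906 counts), which goes against that label, and they are called by their label here. The highest INSL3-KI value, 22.0 FPKM, lies near these, and the source of Insl3 reads in INSL3-KI was not tested. Single libraries also stood apart from their group in germ cell or other marker genes. In testis they included INSL3-KI replicate 2 at P8, replicate 3 at P23 and replicate 1 at P40. In gubernaculum they included replicate 1 of WT and of INSL3-KO at P8, and WT replicate 3 and INSL3-KI replicates 2 and 3 at P23. The summed FPKM of 8 Sertoli cell genes was 172.7–235.7 in WT testis at P23 and P40, 428.2–1220 in INSL3-KI at P23, 1809–1902 in INSL3-KO at P23 and 1119–1801 in INSL3-KI at P40, and all 8 genes were called higher in the last 2 groups than in WT. The summed FPKM of 7 spermatid genes was 9165–15170 in WT testis at P23 and P40, at most 685.3 in INSL3-KI and at most 14.89 in INSL3-KO. Leydig cell and macrophage genes differed too, the 7 Leydig cell genes summing to 264.1–277 FPKM in WT and 1024–1042 in INSL3-KO at P23 and to 328–396.2 in WT and 720.3–928.7 in INSL3-KI at P40, with 4 of 7 called higher in each comparison and 1 lower at P40. The 6 macrophage genes summed to 35.11–36.71 and 301.1–335.8 FPKM at P23 and to 28.13–44.77 and 159.7–245.9 FPKM at P40 in the same groups, with 6 of 6 called higher in each, and their part in the differences of the 10 genes was not tested. In such bulk tissue fewer cells of a type and less RNA per cell cannot be told apart, so each testis comparison was also run with libraries scaled to equal summed counts of the 8 Sertoli cell genes. The median log2 difference of all genes was 0.06 in INSL3-KO against WT at P23 and 0.09 in INSL3-KI against WT at P40, and under that scaling it was −2.61 and −2.13. Values from it are called Sertoli-scaled below. That scaling takes the summed level of these 8 genes per Sertoli cell to be equal in the groups compared, which was not tested. It moved genes down together in both comparisons, so a gene lower with TMM was bound to stay lower there.

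In WT testis at P8, Aldh1a1 had the highest level of the 10 genes. Its mean was 521.1 ± 70.7 FPKM (SD, n = 3), followed by Cyp26b1 at 58.2 ± 5.75, Rara at 50.2 ± 5.83, Stra6 at 34.2 ± 5.47 and Aldh1a2 at 31.4 ± 2.42 FPKM. The ranges of Cyp26b1 (51.6–62.1 FPKM) and Rara (43.4–53.6 FPKM) overlapped, as did those of Stra6 (28.2–38.9) and Aldh1a2 (28.8–33.6), so these neighbours are not ordered beyond their spread. Rdh10 followed at 11.8 ± 0.600, Rarg at 6.58 ± 1.31, Aldh1a3 at 4.16 ± 1.01 and Cyp26a1 at 0.901 ± 0.311 FPKM, and Rarb was lowest at 0.192 ± 0.0478 FPKM. In WT testis at P23 and at P40 Aldh1a1 and Aldh1a2 were the 2 highest, at 122.7 ± 5.58 and 53.9 ± 2.14 FPKM at P23 and at 132.6 ± 12.5 and 61.5 ± 1.55 FPKM at P40, and every other member stayed under 12 FPKM.

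**Figure D1:**
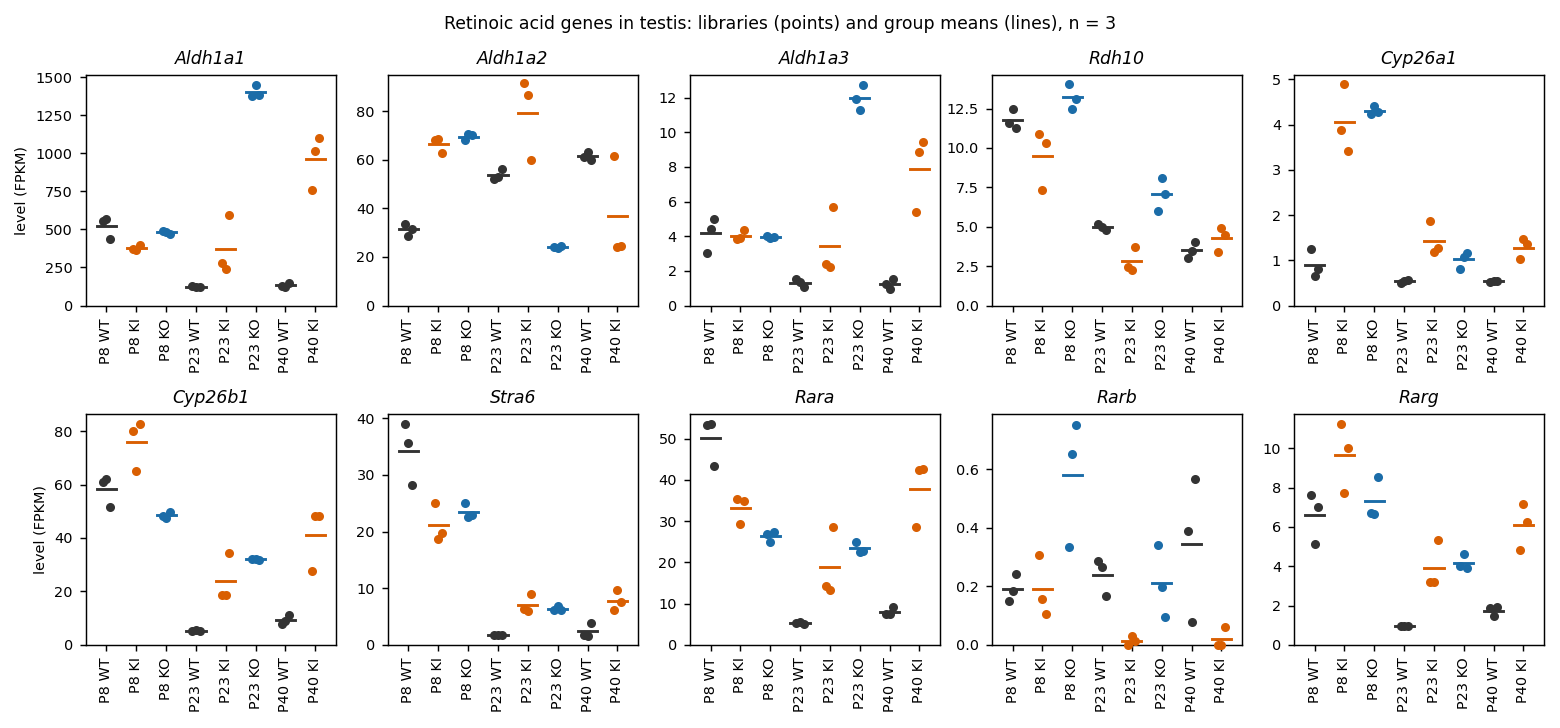
FPKM of each of the 10 genes in the 8 testis groups, 1 panel per gene with its own linear axis, with points for the 3 libraries of a group and a bar for their mean. Aldh1a1 is highest in INSL3-KO at P23 (1376–1451 FPKM) and in INSL3-KI at P40 (761–1103 FPKM), where Aldh1a2 is low in all but 1 library.

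Between P8 and P40 in WT testis, 7 of the 10 genes were called, 6 lower and Aldh1a2 higher, where 59.7% of all 16892 genes tested were called, 27.8% lower and 31.9% higher. Stra6 fell by 3.07 on the log2 scale (SE 0.32, adjusted p = 5.5e-05) and was at −1.23 Sertoli-scaled. Rara fell by 2.01 (SE 0.12, adjusted p = 1.9e-06) and Cyp26b1 fell by 1.94 (SE 0.14, adjusted p = 5.7e-06), but Sertoli-scaled they were at −0.16 and −0.10 and not called. Sertoli-scaled, 3 of the 10 genes were called, 2 higher and 1 lower, where 66.7% of all genes were called. The differences of Aldh1a1 (−1.36, SE 0.12), Rarg (−1.27, SE 0.20) and Rdh10 (−1.05, SE 0.12) turned to 0.50, 0.56 and 0.78 Sertoli-scaled. Aldh1a2 was higher at P40 by 1.67 (SE 0.08, adjusted p = 8.9e-07). Aldh1a3 was at −0.98 (SE 0.25, adjusted p = 0.0078), short of the 2-fold limit, and at 0.79 Sertoli-scaled. Without WT P8 replicate 1 it was called at −1.17, and without WT P40 replicate 1 Rdh10 was at −0.95 and not called. Over the same ages the 8 Sertoli cell genes had a median log2 change of −2.07, with 7 of 8 called lower, and their part in these decreases was not tested. The median of the 10 genes was −1.16, against −0.03 for all genes tested.

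The ALDH1A enzymes oxidise retinal to retinoic acid. In WT testis at P23, Aldh1a1 was at 129, 119.3 and 119.6 FPKM in replicates 1, 2 and 3, and in INSL3-KO at 1376, 1451 and 1384 FPKM. Aldh1a2 was at 52.2, 53.1 and 56.3 FPKM in the same WT libraries and at 24.0, 23.7 and 24.6 FPKM in INSL3-KO. The groups did not overlap for either gene, and the genes moved in opposite directions.

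Aldh1a1 was higher in INSL3-KO than in WT at P23 by 2.87 on the log2 scale (SE 0.05, adjusted p = 4.3e-12, edgeR's quasi-likelihood test with Benjamini-Hochberg adjustment), a difference of 0.20 Sertoli-scaled (adjusted p = 0.011). Aldh1a2 fell by 1.81 (SE 0.05, adjusted p = 2.2e-10), and was at −4.48 Sertoli-scaled, a scaling that could only lower it further here. Aldh1a3, the other enzyme of that step, with a far lower level, was at 1.10–1.52 FPKM in WT and 11.3–12.7 FPKM in INSL3-KO, a log2 difference of 2.48 (SE 0.12, adjusted p = 1.4e-08) that turned to −0.19 Sertoli-scaled. In this comparison 7 of 10 genes were called, 6 higher and 1 lower, where 64.4% of all 16732 genes tested were called, 31.1% higher and 33.4% lower, so that the share called is near that of all genes. Sertoli-scaled, 7 of the 10 genes were called and all 7 were lower, where 78.7% of all genes were called.

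At P40 the INSL3-KI testis showed the same pair of contrasts, with 1 library apart. Aldh1a1 was at 127, 124 and 147 FPKM in WT and at 761, 1014 and 1103 FPKM in INSL3-KI, with no overlap. Aldh1a2 was at 61.1, 63.2 and 60.1 FPKM in WT and at 61.7, 23.9 and 24.5 FPKM in INSL3-KI. INSL3-KI replicate 1, the library with Aldh1a2 at the WT level, also held the germ cell gene Ldhc at 864 FPKM and the highest summed level of 7 spermatocyte genes in its group, 1308 FPKM against a lowest of 241.7 FPKM.

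Aldh1a1 was called higher at P40 by 2.27 (SE 0.21, adjusted p = 0.00037), which became 0.01 Sertoli-scaled (adjusted p = 0.98). Aldh1a2 was at −1.33 (SE 0.43, adjusted p = 0.028) and not called with all libraries, and without INSL3-KI replicate 1 it was called at −1.99 (adjusted p = 1.4e-07). Aldh1a3 was called higher by 2.02 (SE 0.25, adjusted p = 0.00076), and was at −0.25 Sertoli-scaled. Of the 9 genes tested, 5 were called, all higher, where 47.7% of all genes were called and 25.6% were called higher. Sertoli-scaled, 4 were called and all 4 were lower, where 71.7% of all genes were called.

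**Figure D2:**
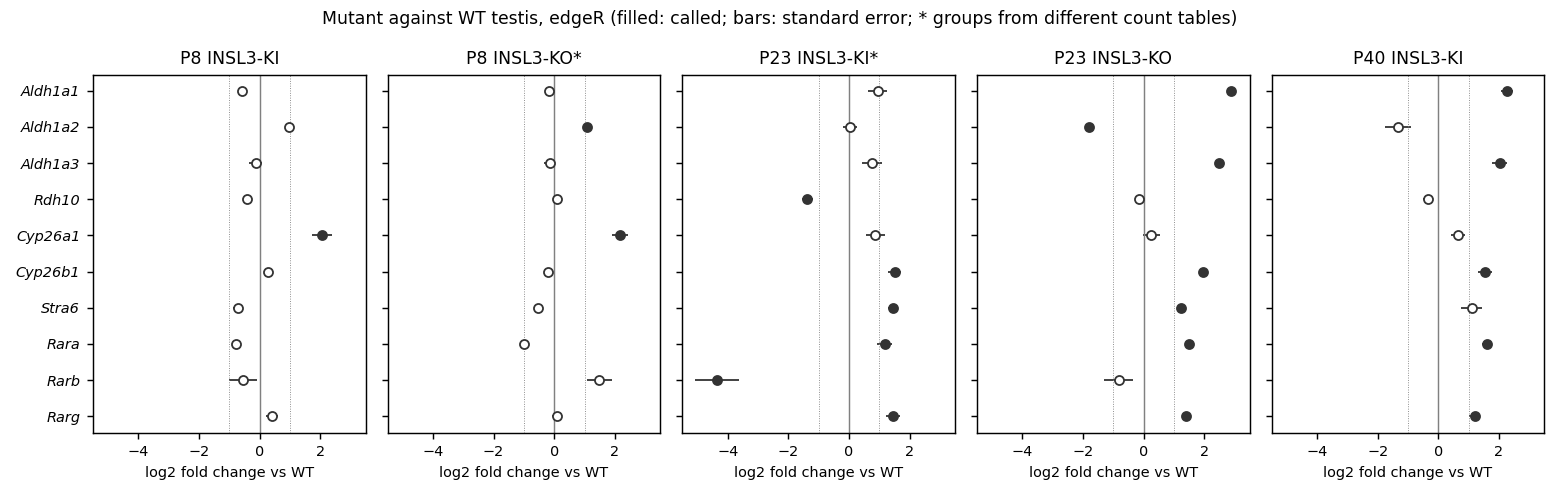
Log2 fold change of each gene against WT in the 5 testis comparisons (edgeR with TMM; bars are standard errors; filled points are called; an asterisk marks the comparisons across tables). Aldh1a1 and Aldh1a2 lie on opposite sides of 0 in INSL3-KO at P23 (2.87 and −1.81) and in INSL3-KI at P40 (2.27 and −1.33). The Sertoli scaling moves genes down together there, with Aldh1a1 at 0.20 and 0.01 and Aldh1a2 further below 0.

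At P23 the ALDH1A genes of INSL3-KI testis were called against INSL3-KO but not against WT. Aldh1a1 was at 279, 238 and 594 FPKM and Aldh1a2 at 91.8, 86.7 and 59.9 FPKM, so that replicate 3 had the highest Aldh1a1 and the lowest Aldh1a2 of the group. Against INSL3-KO, Aldh1a1 was lower at −1.87 (SE 0.30, adjusted p = 0.0018), Aldh1a2 higher by 1.90 (SE 0.24, adjusted p = 0.00072) and Aldh1a3 lower at −1.68 (SE 0.30, adjusted p = 0.003). These and Rdh10 were the 4 genes called of 10, 1 higher and 3 lower, where 38.2% of 16379 genes were called, 25.2% higher and 13% lower. Sertoli-scaled, 4 were called and all 4 were higher, Aldh1a2 at 3.39, Cyp26a1, Stra6 and Rarg, where 44% of all genes were called. Under that scaling Aldh1a1 was at −0.65 (adjusted p = 0.055) and Aldh1a3 at −0.45 (adjusted p = 0.075). With TMM the count was 1 without INSL3-KI replicate 1 or INSL3-KO replicate 2 and 2 without INSL3-KO replicate 1 or 3. In those fits 21.7–22.2% of all genes were called. Against WT, Aldh1a1 was at 0.95 (SE 0.31, adjusted p = 0.04), not called, at −0.45 Sertoli-scaled, and at 0.53 (adjusted p = 0.00042) without INSL3-KI replicate 3. Aldh1a2 was at 0.04 (adjusted p = 0.88) and Aldh1a3 at 0.77 (adjusted p = 0.097) against WT.

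At P8 the order of the genotypes was another. Aldh1a1 was at 556, 568 and 439.8 FPKM in WT, at 373, 362 and 399 FPKM in INSL3-KI and at 487, 485 and 471 FPKM in the libraries labelled INSL3-KO. Aldh1a2 was at 33.6, 28.8 and 31.7 FPKM in WT, at 68.2, 68.6 and 63.0 FPKM in INSL3-KI and at 68.1, 70.7 and 70.1 FPKM in the libraries labelled INSL3-KO, above every WT library in all 6. Its log2 difference from WT was 0.99 in INSL3-KI (SE 0.10, adjusted p = 0.0038), just under the 2-fold limit, and 1.08 in the libraries labelled INSL3-KO (SE 0.07, adjusted p = 3.5e-05), which was called. Sertoli-scaled the latter was 0.71 and not called. Aldh1a1 was at −0.59 in INSL3-KI (SE 0.11, adjusted p = 0.011), not called.

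The summed FPKM of the 7 spermatocyte genes moved with Aldh1a2 at P8. It ran from 19.61 to 45.81 in WT, 242.2–948.6 in INSL3-KI and 325.1–331.5 in the libraries labelled INSL3-KO, with 5 of 7 genes called higher in each. At P23 it was 3081–3168 in WT, against 1340–2278 in INSL3-KI and 90.55–95.41 in INSL3-KO, so that both it and Aldh1a2 were lowest in INSL3-KO, while Aldh1a2 FPKM was not lower in INSL3-KI than in WT. Spermatocyte content and Aldh1a2 were not separated, and its part in the Aldh1a2 values was not tested.

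Within a library the ratio of Aldh1a1 to Aldh1a2 needs no scaling between libraries. In testis it ran from 13.9 to 19.7 in WT at P8, 2.13–2.47 in WT at P23 and 1.96–2.45 in WT at P40. It was 5.28–6.33 in INSL3-KI at P8 and 6.72–7.14 in the libraries labelled INSL3-KO at P8, below every WT library of that age. At P23 it was 3.04, 2.74 and 9.91 in INSL3-KI and 57.3, 61.2 and 56.3 in INSL3-KO, and at P40 it was 12.3, 42.4 and 44.98 in INSL3-KI, above every WT library of the same age. The order of WT and mutants was thus opposite at P8 and at the later ages, without overlap in any of the 5 comparisons. In a test of whether the difference of INSL3-KI from WT changed between P8 and P40, 7 of the 10 genes were called. Aldh1a1 and Aldh1a2 were among them, and 5 went toward higher and 2 toward lower at P40. Of all 17354 genes 45.6% were called, 23.2% and 22.5% in those directions. Sertoli-scaled, 5 were called, all toward lower, with the share of all genes under that scaling not given here. A second test asked whether the difference of INSL3-KI from WT at P8 differed between gubernaculum and testis. There 4 of 10 were called, 2 toward higher and 2 toward lower in gubernaculum. Of all 16626 genes 21.8% were called, 12.9% and 8.92% in those directions. With 3 libraries against 3, a two-sided exact permutation test cannot go below 0.1, so no test of the ratio is given.

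Aldh1a1 made up 93.5% ± 1.11 of the summed FPKM of the 3 Aldh1a genes in WT testis at P8, 68.9% ± 1.54 at P23 and 67.8% ± 2.37 at P40. It made up 97.5% ± 0.143 in INSL3-KO at P23 and 95.3% ± 2.91 in INSL3-KI at P40. Aldh1a3 was at most 1.05% of the sum in any testis library.

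**Figure D3:**
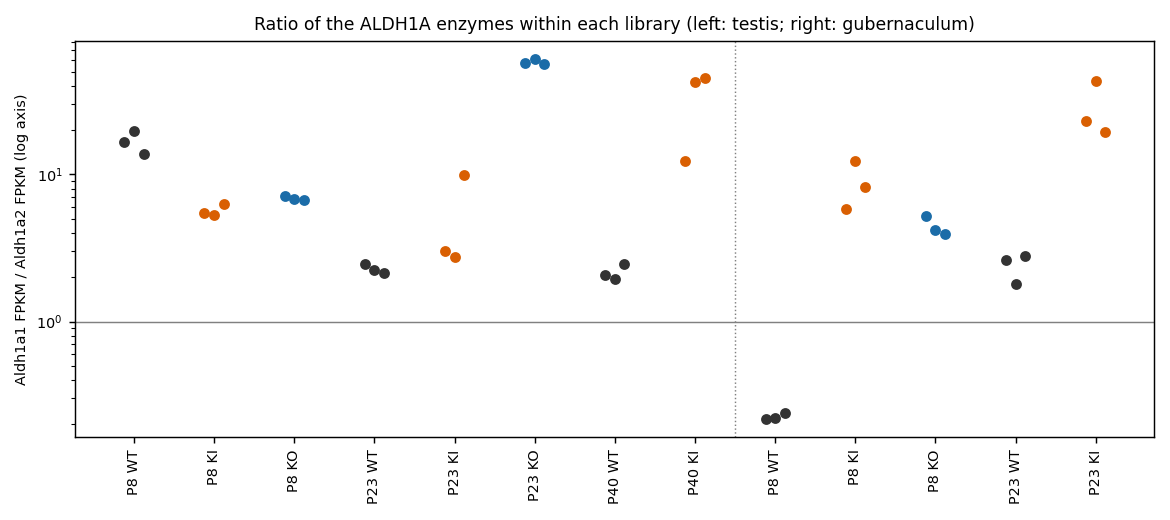
Ratio of Aldh1a1 to Aldh1a2 FPKM in each library on a log axis, for the 13 groups of testis and gubernaculum. WT testis lies between 13.9 and 19.7 at P8 and near 2 later, INSL3-KO testis at P23 between 56.3 and 61.2, and WT gubernaculum at P8 near 0.2.

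Rdh10 encodes the dehydrogenase of the first step, retinol to retinal. In testis it was at 11.3–12.4 FPKM in WT at P8, 7.35–10.9 in INSL3-KI and 12.5–14.1 in the libraries labelled INSL3-KO. It was at 4.82–5.15 FPKM in WT, against 2.23–3.71 in INSL3-KI and 6.02–8.10 in INSL3-KO at P23, and at 3.01–4.06 in WT and 3.37–4.93 in INSL3-KI at P40. INSL3-KI at P23 was the one testis group in which it was called against WT, lower at −1.37 (SE 0.18, adjusted p = 0.0023), and it was lower there than in INSL3-KO as well, at −1.17 (SE 0.19, adjusted p = 0.0023), which turned to 0.16 Sertoli-scaled. In INSL3-KO at P23 and INSL3-KI at P40 Rdh10 was not called against WT, and Sertoli-scaled it was called lower in both, at −2.83 and −2.59.

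Cyp26b1, which breaks down retinoic acid in the embryonic gonad and in the peritubular cells of the testis, was the main CYP26 transcript of every testis group. It made up between 90.7% and 98.5% of the summed FPKM of the pair in group means. It was at 5.09, 5.42 and 5.24 FPKM in WT testis at P23, at 18.8, 18.7 and 34.4 FPKM in INSL3-KI and at 32.2, 32.2 and 31.9 FPKM in INSL3-KO, so that neither mutant overlapped with WT. At P40 it was at 7.66, 8.87 and 11.3 FPKM in WT and at 27.5, 48.1 and 48.0 FPKM in INSL3-KI.

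Cyp26b1 was called higher in INSL3-KO at P23 by 1.96 (SE 0.05, adjusted p = 1.5e-10), in INSL3-KI at P23 by 1.52 (SE 0.21, adjusted p = 0.0029) and in INSL3-KI at P40 by 1.53 (SE 0.24, adjusted p = 0.0018). The first turned to −0.71 and the last to −0.74 Sertoli-scaled, and the last was not called without WT replicate 2 (adjusted p = 0.01). At P8 it was at 51.6–62.1 FPKM in WT, 65.0–82.6 in INSL3-KI and 47.3–49.6 in the libraries labelled INSL3-KO, where the difference from WT was −0.21 (SE 0.08, adjusted p = 0.049) and not called. The transcript length behind its FPKM differs between the tables, with a ratio of first to second of 0.92 after dividing by the median gene, so its level is less comparable across the tables than that of the other members.

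Cyp26a1, the other CYP26 enzyme, is a textbook target of retinoic acid through a response element in its own promoter, as is Rarb. It was at 1.25, 0.645 and 0.811 FPKM in WT testis at P8, at 3.87, 4.89 and 3.41 FPKM in INSL3-KI and at 4.24, 4.40 and 4.27 FPKM in the libraries labelled INSL3-KO. Every mutant library was above every WT library. Cyp26a1 was the one gene of 10 called in INSL3-KI at P8, higher by 2.06 (SE 0.34, adjusted p = 0.0075), where 6.29% of 15702 genes were called and 3.03% were called higher. It was no longer called when any library but WT replicate 1 was left out, with log2 differences of 1.88–2.19 and adjusted p-values of 0.011–0.041. Over all genes calls fell there too, from 987 to 0 without WT replicate 2 and to 1 without WT replicate 3 or INSL3-KI replicate 1. They were 14 without INSL3-KI replicate 3 and 897 without INSL3-KI replicate 2. In the libraries labelled INSL3-KO Cyp26a1 was higher by 2.18 (SE 0.27, adjusted p = 0.00049). With Aldh1a2 it made 2 genes called of 10, both higher, where 13.8% of 15723 genes were called and 5.44% were called higher. Sertoli-scaled, Cyp26a1 was called higher and Rara lower, where 16% of all genes were called. Without WT replicate 3 or INSL3-KO replicate 3 Rara was called as well.

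At later ages Cyp26a1 was at 0.507–0.574 FPKM in all 6 WT testis libraries of P23 and P40. It was at 1.18–1.86 FPKM in INSL3-KI at P23, 0.819–1.16 in INSL3-KO at P23 and 1.02–1.47 in INSL3-KI at P40, above the FPKM of WT each time. The log2 differences were 0.88 in INSL3-KI at P23 (SE 0.30, adjusted p = 0.048) and 0.64 in INSL3-KI at P40 (SE 0.23, adjusted p = 0.041), neither called, and they turned to −0.33 and −1.62 Sertoli-scaled. In INSL3-KO at P23 the log2 difference was 0.25 (SE 0.27, adjusted p = 0.39), and Cyp26a1 was called lower Sertoli-scaled, at −2.41. In INSL3-KO testis it was lower at P23 than at P8 at −1.79 (SE 0.19, adjusted p = 2.5e-06).

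The promoters of these 2 genes are shown because they hold the kind of element through which RAR proteins act. In RefSeq promoter windows of GRCm38.p6, from 250 bases before to 50 after a start site, 8 of the 10 genes had 16 windows, and a search on both strands for a DR5 element, a pair of RAR half-sites in the same direction 5 bases apart, found it in windows of Rarb and Cyp26a1 alone. The same letters were found in 32 of all 32851 promoter windows, or 0.0974%. The 150 bases before the start site are printed on the strand of the gene, with the half-sites in capitals. That of Rarb lies at chr14:16575477-16575626 on the minus strand, with the element beginning 53 bases before the start, and that of Cyp26a1 at chr19:37697658-37697807 on the plus strand, with the element beginning 32 bases before the start and reading on the opposite strand.
Rarb: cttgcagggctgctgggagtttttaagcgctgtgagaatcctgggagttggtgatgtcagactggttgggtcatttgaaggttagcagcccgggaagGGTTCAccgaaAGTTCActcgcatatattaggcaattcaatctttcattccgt
Cyp26a1: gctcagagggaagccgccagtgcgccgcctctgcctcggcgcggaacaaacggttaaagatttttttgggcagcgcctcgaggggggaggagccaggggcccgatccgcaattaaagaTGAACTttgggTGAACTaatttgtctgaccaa
A match of letters is a description of the window, and no binding was measured here.

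Rarb had the lowest mean level of the members in WT testis at each age, at 0.0791–0.566 FPKM in the 9 WT libraries. In INSL3-KI it was at 0, 0.0310 and 0.0125 FPKM at P23 and at 0, 0 and 0.0607 FPKM at P40, while Cyp26a1 FPKM was above WT in the same libraries. In gubernaculum at P8 both genes were called lower in INSL3-KI.

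At P23 these were 6 Rarb counts in 3 INSL3-KI libraries against 92 in 3 WT libraries, 15.9-fold lower relative to the library totals (95% interval 7.04–44.5, counting error only), and the fitted log2 difference was −4.35 (SE 0.74, adjusted p = 0.0049). At P40 there were 8 against 52 counts, 6.28-fold lower (95% interval 2.96–15.3, counting error only), too few to pass the filter on low counts, and the 8 lay in 1 library. At P8 Rarb was at 0.149–0.244 FPKM in WT, 0.107–0.308 in INSL3-KI and 0.336–0.753 in the libraries labelled INSL3-KO, a log2 difference of 1.49 for the last (SE 0.42, adjusted p = 0.02) that was not called. In INSL3-KO at P23 it was at 0.343, 0.199 and 0.0948 FPKM, within or next to the WT range of 0.166–0.288, and INSL3-KI differed from it by −3.5 (SE 0.94, adjusted p = 0.015, not called).

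Rara, the RAR that Sertoli cells and germ cells of the testis use most, made up between 77.1% and 88.0% of the summed FPKM of the 3 receptors in group means of testis. It was at 53.4, 53.6 and 43.4 FPKM in WT at P8, at 35.3, 29.3 and 35.0 FPKM in INSL3-KI and at 26.9, 24.9 and 27.4 FPKM in the libraries labelled INSL3-KO. Both mutants lay below WT, with log2 differences of −0.77 in INSL3-KI (SE 0.11, adjusted p = 0.0055) and −0.99 in the libraries labelled INSL3-KO (SE 0.09, adjusted p = 0.00012), neither of which reached the 2-fold limit. Sertoli-scaled the second was −1.35 and called.

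At the later ages Rara lay above WT in the mutants. It was at 5.17–5.63 FPKM in WT at P23, at 14.3, 13.4 and 28.7 FPKM in INSL3-KI and at 25.0, 22.4 and 22.8 FPKM in INSL3-KO, and at P40 it was at 7.46–9.11 FPKM in WT and at 28.5, 42.4 and 42.7 FPKM in INSL3-KI. It was called higher in INSL3-KO at P23 by 1.51 (SE 0.06, adjusted p = 5.5e-09), in INSL3-KI at P23 by 1.19 (SE 0.25, adjusted p = 0.0091) and in INSL3-KI at P40 by 1.61 (SE 0.17, adjusted p = 0.00046), and these turned to −1.16, −0.18 and −0.65 Sertoli-scaled.

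Rarg, a receptor of A spermatogonia, was at 0.956–0.980 FPKM in WT testis at P23, 3.19–5.32 in INSL3-KI and 3.92–4.63 in INSL3-KO, and at P40 at 1.45–1.92 in WT and 4.82–7.16 in INSL3-KI. It was called higher by 1.45 (SE 0.22, adjusted p = 0.0034), 1.39 (SE 0.14, adjusted p = 4.4e-06) and 1.20 (SE 0.18, adjusted p = 0.0014) in turn, of which the last 2 turned to −1.28 and −1.06 Sertoli-scaled. At P8 its levels of 5.11–7.63 FPKM in WT, 7.73–11.2 in INSL3-KI and 6.67–8.55 in the libraries labelled INSL3-KO did not pass the test.

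Stra6, the retinol uptake receptor, fell with age in WT testis from 28.2–38.9 FPKM at P8 to 1.70–1.79 at P23, a step across the tables that was not tested, and 1.57–3.85 at P40. At P8 it was at 18.7–25.0 FPKM in INSL3-KI and 22.6–25.0 in the libraries labelled INSL3-KO, with log2 differences of −0.73 (SE 0.16, adjusted p = 0.016) and −0.53 (SE 0.11, adjusted p = 0.0059), neither called. At P23 it was called higher, by 1.46 in INSL3-KI at 5.96–8.96 FPKM (SE 0.16, adjusted p = 0.0014) and by 1.22 in INSL3-KO at 6.11–6.83 FPKM (SE 0.10, adjusted p = 1.3e-06), the second turning to −1.45 Sertoli-scaled. At P40 it was at 6.15–9.60 FPKM in INSL3-KI, a log2 difference of 1.10 (SE 0.36, adjusted p = 0.029) that was not called, was called at 1.58 without WT replicate 3 (adjusted p = 0.0031), and was −1.14 Sertoli-scaled.

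In INSL3-KI against WT at P23, 6 of 10 genes were thus called, Cyp26b1, Stra6, Rara and Rarg higher and Rdh10 and Rarb lower, where 20.6% of 16603 genes were called, 8.81% higher and 11.8% lower. Sertoli-scaled, none of the 4 higher calls was kept, with Cyp26b1 and Stra6 at 0.19 and Rarg at 0.14. Rdh10 and Rarb were called lower under that scaling, where 14.2% of all genes were called. With TMM the count was 0 when any WT library was left out, where only 2.21–2.47% of all genes were called. It was 1 (Stra6) without INSL3-KI replicate 1, where 4.62% of all genes were called. With the replicate number as a block it was 3, beside 9.62% of all genes. Without replicate 3, the INSL3-KI library that stood apart, 5 were called and Rara was at 0.85, where 24.2% of all genes were called. The median log2 difference of the 10 genes was 0.91 against 0.08 for all genes, that in INSL3-KO at P23 was 1.30 against 0.06, and that in INSL3-KI at P40 was 1.20 against 0.09, while at P8 it was −0.27 against 0.00 in INSL3-KI and −0.04 against −0.02 in the libraries labelled INSL3-KO.

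**Figure D4:**
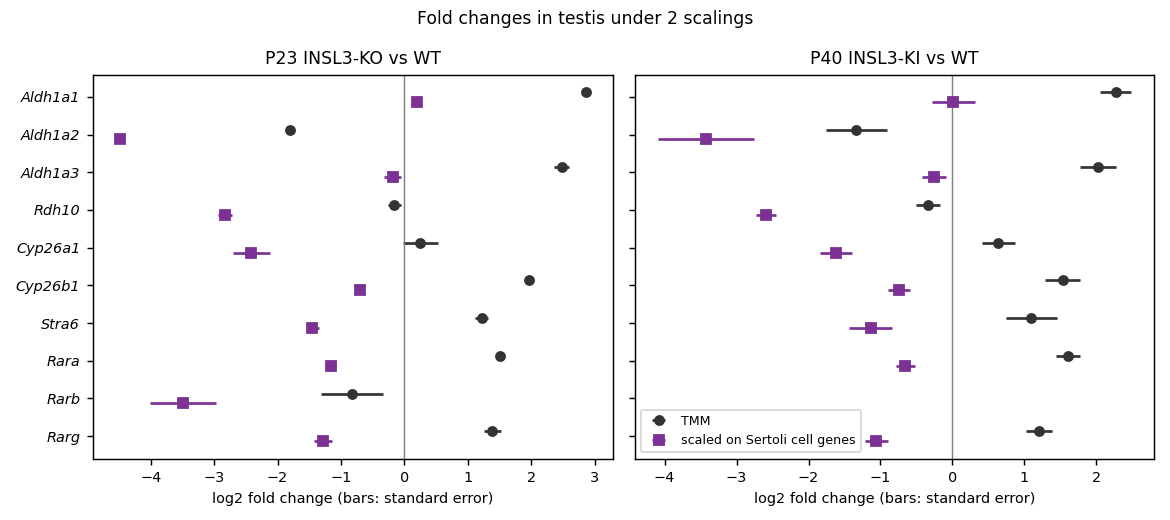
Log2 fold change against WT of each gene under TMM and Sertoli-scaled, for INSL3-KO at P23 and INSL3-KI at P40 (bars are standard errors; Rarb was not tested at P40). Sertoli-scaled, the points move down together, and most cross 0. Aldh1a2, already below 0 with TMM, goes from −1.81 to −4.48 at P23 and from −1.33 to −3.43 at P40.

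Age was also compared within each mutant, between P8 and P23 and, in INSL3-KI, between P23 and P40. In INSL3-KO testis between P8 and P23, 5 of 10 genes were called, where 23.7% of 15773 genes were called, 12% higher and 11.7% lower. Aldh1a1 was higher by 1.83 (SE 0.03, adjusted p = 4.3e-14) and Aldh1a3 by 1.92 (SE 0.07, adjusted p = 1.1e-10), while Aldh1a2 fell by 1.25 (SE 0.04, adjusted p = 5.6e-11), Stra6 fell by 1.6 (SE 0.07, adjusted p = 2.9e-10) and Cyp26a1 as given above. Sertoli-scaled, 8 were called, 2 higher and 6 lower, with the share of all genes under that scaling not given here. In INSL3-KI between P8 and P23, 3 were called lower, where 9.23% of 16412 genes were called and 3.53% were called lower, namely Rdh10 at −1.42 (SE 0.22, adjusted p = 0.009), Cyp26b1 at −1.33 (SE 0.22, adjusted p = 0.0096) and Stra6 at −1.22 (SE 0.18, adjusted p = 0.0088). None was called without P8 replicate 1 or 3 or P23 replicate 1 or 2, or Sertoli-scaled. In each of those fits 0 of all genes tested were called, so the loss is not particular to these genes.

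In INSL3-KI between P23 and P40, edgeR called 0 of the 9 genes tested and 0% of all 16328 genes, with 4 of the 9 at an unadjusted p under 0.05. DESeq2 called 0 of the 9 and 1145 of all genes. The P23 and P40 groups each hold 1 library with a marker profile apart from the others.

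The testis genes whose log2 CPM (counts relative to the library's size) ran most like those of Aldh1a1 over the 15 testis libraries of the first table were Fkbp5 (Pearson r = 0.987), Sdsl (0.980) and Nrn1 (0.979). For Aldh1a2 they were Thoc1 (0.979), Ndufs1 (0.977) and Rad51c (0.977), and for Cyp26b1 Chd6 (0.995), Taf1 (0.992) and Zfp292 (0.990), all out of 12316 genes with a mean of at least 5 CPM. These libraries share their ages and genotypes, and the correlations describe likeness of pattern only.

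Other genes of vitamin A handling were counted over a list of 41, with carriers, storage enzymes, other dehydrogenases, RXR genes and cofactors. In INSL3-KO against WT at P23, 12 of the 35 tested were called higher and 9 lower, beside 64.4% of all genes called, and in INSL3-KI at P40, 13 of 33 were called higher and 6 lower, beside 47.7%. Of those calls 8 of 21 and 11 of 19 changed direction Sertoli-scaled. Under that scaling 2 were called higher and 25 lower in INSL3-KO at P23, where 78.7% of all genes were called. In INSL3-KI at P40, 0 were called higher and 20 lower, where 71.7% of all genes were called.

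Fabp5, which encodes a fatty acid carrier that also binds retinoic acid, was higher by 3.89 in INSL3-KO at P23 (1.23 Sertoli-scaled) and by 2.92 in INSL3-KI at P40 (0.66 Sertoli-scaled). Lrat, which stores retinol as esters, was lower at −6.41 and −3.55 in those comparisons, and Bco1, which cleaves carotene to retinal, at −8.12 and −8.74. Aldh8a1, a further retinal dehydrogenase, was at −7.57 and −6.34, Dhrs4 at −2.20 and −2.03 and Rxrg at −3.33 and −2.73. The Sertoli scaling lowers values in both comparisons, so it could not reverse these decreases. Dhrs3, which turns retinal back to retinol and is itself induced by retinoic acid, was at 1.53 and 1.47, and at −1.13 and −0.79 Sertoli-scaled.

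In INSL3-KI at P23, 2 of 33 list genes were called higher, among them Rxrb by 1.10 (−0.17 Sertoli-scaled), and 3 lower, Lrat at −1.64, Bco1 at −4.84 and Adh4 at −1.15. At P8, 1 of 32 was called in INSL3-KI, the dehydrogenase gene Adh1, lower at −1.87, and in the libraries labelled INSL3-KO 2 of 34 were called higher, Rbp4 by 1.72 and Rdh12 by 2.34, and 2 lower, among them Rxra at −1.20. The median of the list was −0.16 in INSL3-KI and 0.04 in the libraries labelled INSL3-KO at P8, −0.27 in INSL3-KI and 0.43 in INSL3-KO at P23 and 0.36 in INSL3-KI at P40, beside medians of all genes between −0.02 and 0.09.

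A list of 10 genes known to respond to retinoic acid, 3 of them also in the list of 41, was counted in the same way. At P8, 1 of 10 was called in INSL3-KI, where 6.29% of all genes were called. It was the meiotic cohesin gene Rec8, higher by 1.64, and Sertoli-scaled it was at 1.48 and not called. In the libraries labelled INSL3-KO 2 of 10 were called higher and 1 lower, where 13.8% of all genes were called. They were Rec8 at 1.62, Stra8, the meiosis gatekeeper, at 1.80 and Hic1 at −2.43, and all 3 stayed called Sertoli-scaled. Summed spermatocyte genes were also higher in these mutant libraries than in WT, as given above, and their part was not tested. At P23 Rec8 was lower at −1.22 in INSL3-KI and −1.18 in INSL3-KO, and at P40 at −1.46 in INSL3-KI. In INSL3-KI at P23, 3 of the 8 tested were called higher and 1, Rec8, lower, beside 20.6% of all genes called. The higher ones were Hic1 by 2.54, Tgm2 by 1.68 and Sall4 by 1.58, at 1.10, 0.35 and 0.23 Sertoli-scaled. Sertoli-scaled, 0 were called higher and 2 lower in that comparison, where 14.2% of all genes were called. In INSL3-KO at P23, 6 of 10 were called higher and 1 lower and in INSL3-KI at P40, 5 were higher and 1 lower, beside 64.4% and 47.7% of all genes called. Of these, 5 of 7 and 5 of 6 changed direction Sertoli-scaled. Under that scaling 0 were called higher and 4 lower in INSL3-KO at P23, where 78.7% of all genes were called. At P40, 0 were called higher and 2 lower, where 71.7% of all genes were called.

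In the gubernaculum at P8, the WT tissue differed from WT testis in 7 of the 10 genes, 5 lower and 2 higher, where 28.4% of 15624 genes were called, 14.3% lower and 14.1% higher. Aldh1a1 was 75.6-fold lower than in testis, at 5.40, 6.87 and 5.37 FPKM (log2 difference −6.24, SE 0.19, adjusted p = 8.8e-07), and Cyp26b1 was 109.6-fold lower at 0.373–0.392 FPKM (−6.78, SE 0.13, adjusted p = 3.4e-07). Stra6 was lower at −1.90 (SE 0.25, adjusted p = 0.00058), Rdh10 at −1.75 (SE 0.11) and Rara at −1.29 (SE 0.11, adjusted p = 8.6e-05). Rarb was 16.2-fold higher at 2.09–3.05 FPKM (log2 difference 4.02, SE 0.31, adjusted p = 4.6e-05), and Rarg was higher by 1.04 (SE 0.17, adjusted p = 0.0015), short of the 2-fold limit without replicate 2 of either tissue. Aldh1a2 held 74.5% ± 2.13 of the summed FPKM of the Aldh1a genes in WT gubernaculum, and Cyp26a1 66.5% ± 7.39 of that of the Cyp26 genes.

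**Figure D5:**
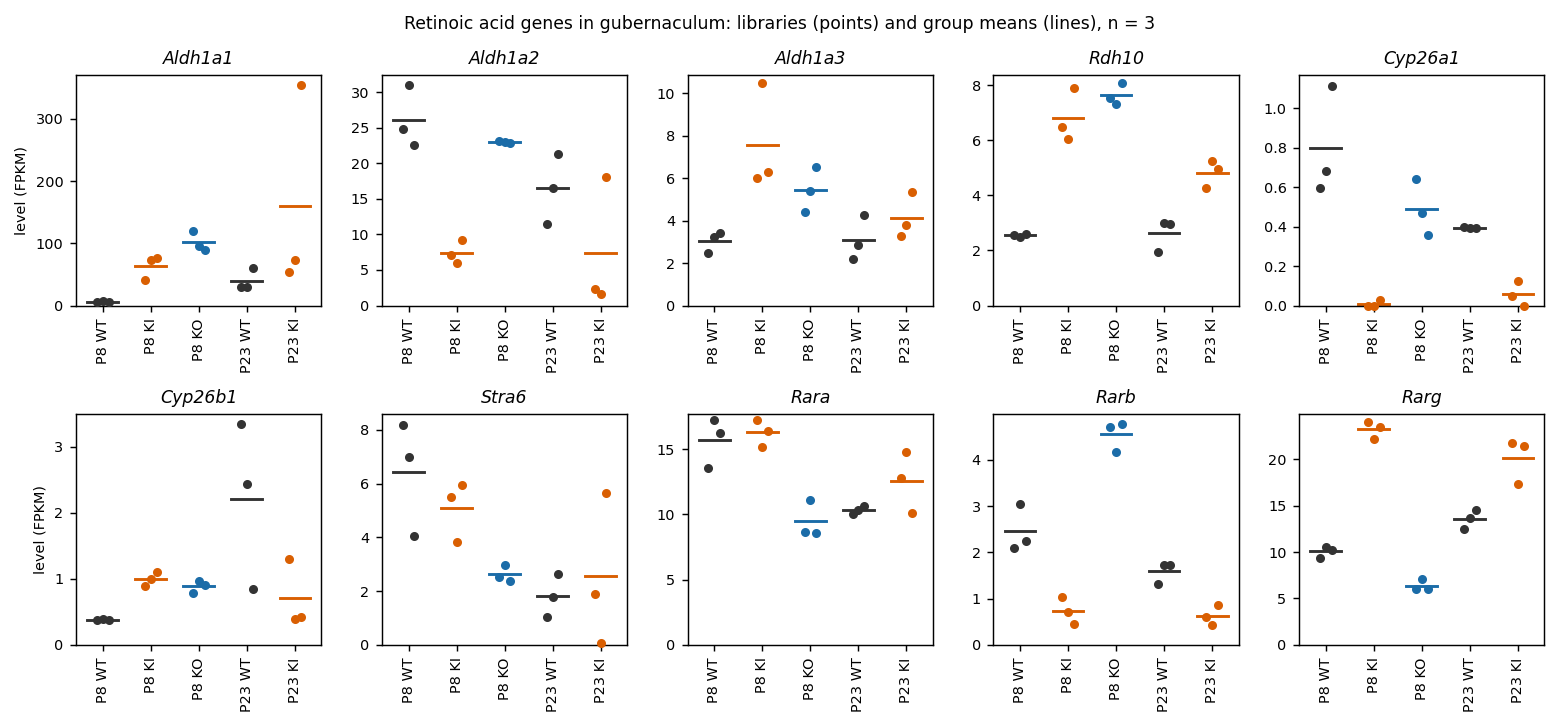
FPKM of each of the 10 genes in the 5 gubernaculum groups, 1 panel per gene with its own linear axis, with points for the 3 libraries of a group and a bar for their mean. At P8 Aldh1a1 is at 5.37–6.87 FPKM in WT and at 40.8–121 FPKM in the mutants, and Cyp26a1 is at or near 0 in INSL3-KI.

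Aldh1a1 and Rdh10 were higher in both mutants than in WT gubernaculum at P8. Aldh1a1 was at 40.8, 73.5 and 76.0 FPKM in INSL3-KI and at 121, 95.9 and 89.8 FPKM in INSL3-KO, higher than WT by 3.31 (SE 0.26, adjusted p = 2.4e-05) and by 4.20 (SE 0.18, adjusted p = 2.6e-06). Rdh10 was at 2.50–2.60 FPKM in WT, against 6.05–7.89 in INSL3-KI and 7.33–8.08 in INSL3-KO, higher by 1.07 (SE 0.14, adjusted p = 0.00039) and 1.40 (SE 0.09, adjusted p = 1.4e-05). Cyp26b1 was called higher in both as well, by 1.02 (SE 0.25, adjusted p = 0.0093) at 0.886–1.10 FPKM and by 1.16 (SE 0.20, adjusted p = 0.0017) at 0.784–0.966 FPKM. The first of these calls was lost when any 1 of the 6 libraries was left out or with the replicate number as a block, and the second without INSL3-KO replicate 2.

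The remaining calls in the P8 gubernaculum lay in 1 mutant each. Aldh1a2 was at 24.8, 31.0 and 22.6 FPKM in WT, at 7.05, 5.95 and 9.27 FPKM in INSL3-KI and at 23.2, 23.05 and 22.9 FPKM in INSL3-KO, lower in INSL3-KI at −2.16 (SE 0.19, adjusted p = 3.9e-05) and at −0.34 in INSL3-KO (adjusted p = 0.034, not called). Cyp26a1 gave 2 counts in 3 INSL3-KI libraries against 160 in WT, 70.7-fold lower relative to the library totals (95% interval 19.3–589, counting error only), with 0.355–0.642 FPKM in INSL3-KO against 0.598–1.12 in WT.

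Rarb lay on opposite sides of WT in the mutants, at 0.449–1.03 FPKM in INSL3-KI and 4.17–4.78 in INSL3-KO, lower at −2.06 (SE 0.33, adjusted p = 0.0011) in the first and at 0.79 (SE 0.18, adjusted p = 0.0067, under the 2-fold limit) in the second. Rarg did the reverse, at 22.2–24.0 FPKM in INSL3-KI and 6.02–7.12 in INSL3-KO against 9.39–10.6 in WT, with 0.83 (SE 0.10, adjusted p = 0.00022) and −0.86 (SE 0.10, adjusted p = 0.00029), neither past 2-fold. In INSL3-KO, Stra6 was lower at −1.42 (SE 0.25, adjusted p = 0.0019) and Rara at −1.01 (SE 0.13, adjusted p = 0.00034). The mutants were not tested against each other in this tissue.

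In all, 6 of 10 genes were called in INSL3-KI gubernaculum at P8, 3 higher and 3 lower, where 24.1% of 15500 genes were called, 14.4% higher and 9.7% lower. In INSL3-KO 5 were called, 3 higher and 2 lower, where 30.7% of 15609 genes were called, 15.5% higher and 15.2% lower. Rdh10 in INSL3-KI was at 0.96 without INSL3-KI replicate 3, and Rara in INSL3-KO was under the 2-fold limit without WT replicate 2 or INSL3-KO replicate 1. Without INSL3-KO replicate 1 Aldh1a1 was at 4.07. Of the list of 41, 7 of 32 were called higher and 2 lower in INSL3-KI and 11 of 37 higher and 3 lower in INSL3-KO. The tissue pieces differed in other cell types too. The 7 epididymis genes summed to 0.283–1.06 FPKM in WT and to 492.6–1226 and 673.6–745.7 FPKM in INSL3-KI and INSL3-KO, and in the same order of groups the sum of 7 skeletal muscle genes was 12050–13040, 539.1–970.6 and 3804–4048, and that of 5 smooth muscle and peritubular genes 441.7–627.1, 7869–9272 and 3506–3741. The 7 hepatocyte genes summed to 83.61–3829 FPKM in INSL3-KO, with the highest in replicate 1, against 0.8205–15.55 in WT. The 7 spermatid genes summed to 64.69, 15.78 and 1.27 FPKM in WT replicates 1, 2 and 3, and to at most 2.03 in the mutants. Their part in these differences was not tested.

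At P23 edgeR called 0 of the 10 genes between INSL3-KI and WT gubernaculum, where 2.57% of 15082 genes were called and 4 of the 10 had an unadjusted p under 0.05. Rarb was at 1.31–1.73 FPKM in WT and 0.422–0.863 in INSL3-KI, a log2 difference of −1.70 (SE 0.38, adjusted p = 0.039), and it was the one gene of the 10 that DESeq2 called. Aldh1a1 was at 29.9, 29.8 and 59.8 FPKM in WT and at 53.7, 72.8 and 354 FPKM in INSL3-KI, and Aldh1a2 at 11.5, 16.6 and 21.4 FPKM in WT and at 2.31, 1.68 and 18.1 FPKM in INSL3-KI, where the highest value of each gene in INSL3-KI came from replicate 3. The 7 epididymis genes summed to 1538, 1.40 and 5415 FPKM in INSL3-KI replicates 1, 2 and 3 and to 0.126, 0.228 and 629.8 FPKM in WT, whose replicate 3 had the highest Aldh1a1 and Aldh1a2 of WT. The 5 smooth muscle and peritubular genes summed to 5452, 781.1 and 5843 FPKM in INSL3-KI and 298.9–1684 in WT, and the 7 skeletal muscle genes to 596.7, 8.25 and 451.9 FPKM in INSL3-KI and 27450–40330 in WT. Their part in these values was not tested. Without INSL3-KI replicate 3 Aldh1a2 was called, lower at −3.28 (adjusted p = 0.0066).

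Cyp26a1 was at 0.394–0.397 FPKM in WT gubernaculum at P23 and at 0–0.124 FPKM in INSL3-KI, with 12 counts against 80. The other members were at 2.18–4.25 and 3.28–5.34 FPKM in WT and INSL3-KI for Aldh1a3, 1.93–2.99 and 4.27–5.26 for Rdh10, 0.852–3.35 and 0.390–1.30 for Cyp26b1, 1.03–2.64 and 0.0773–5.66 for Stra6, 10.02–10.6 and 10.1–14.8 for Rara and 12.5–14.6 and 17.4–21.8 for Rarg. The ratio of Aldh1a1 to Aldh1a2 was 1.80–2.80 in WT and 19.5–43.4 in INSL3-KI, as at P8, where it was 0.218–0.238 in WT, against 5.79–12.4 in INSL3-KI and 3.92–5.20 in INSL3-KO, with no overlap of a mutant with WT.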

How the data were processed

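Poly(A) RNA of testis and gubernaculum was sequenced in 39 libraries, 13 groups of 3. The authors extracted RNA with TRIzol, built libraries with a Hieff NGS kit and mapped reads with HISAT2, and the submitters' processing notes name GRCm38; the counting program and annotation are not given in the sources used here. The deposited raw counts per gene and the deposited FPKM values, which the authors scaled by transcript length and library total, came in 2 tables of each unit (27 and 12 libraries), joined here on 21561 shared Ensembl genes with 94.2–97.9% of each library's counts. Groups came from the sample labels. The paper describes the 3 libraries of a group as independent biological replicates. It does not say whether each came from a single animal or a pool, so p-values measure the spread between these libraries.

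Counts of the compared groups were fitted with edgeR 4.0.16 (quasi-likelihood, TMM, filterByExpr at a count of 10 and a total of 15) in R 4.3.3, with Benjamini-Hochberg adjustment over all genes tested, in 14 comparisons and 2 interaction tests. The fit was tested on simulated counts. Alternatives were DESeq2 1.42.0, limma 3.58.1 on log2(FPKM + 1) and log2(FPKM + 0.1), no filter, library size alone, all groups in 1 fit, a replicate block, scaling on the Sertoli cell list and each replicate left out.

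The members and lists were chosen with earlier results of these data known. All 10 members are given by level; fold changes are printed for members called or with an adjusted p under 0.05, and other pathway genes where called against WT testis. Some called genes of the pathway lists are counted but not reported here by name. For Aldh1a1, Aldh1a2 and Cyp26b1 the 3 genes with the highest Pearson r are named. Promoter sequences are from RefSeq (GRCm38.p6). Intervals on count ratios cover counting error only. No pair of replicates agreed within sampling noise.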

Additional observations from a re-analysis of the deposited data

Results flagged for a closer look

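The difference between INSL3-KI and WT testis was not the same at P40 as at P8. In a test of the interaction of genotype and age on the 12 WT and INSL3-KI testis libraries of these ages, by edgeR's quasi-likelihood test with Benjamini-Hochberg adjustment, 7 of the 10 genes were called, where 45.6% of 17354 genes were called. The log2 difference at P40 less that at P8 was 2.79 for Aldh1a1 (SE 0.20, adjusted p = 5.6e-06), 2.07 for Aldh1a3 (SE 0.35, adjusted p = 0.00049) and 2.31 for Rara (SE 0.22, adjusted p = 2.4e-05). It was −2.41 for Aldh1a2 (SE 0.46, adjusted p = 0.001) and −1.50 for Cyp26a1 (SE 0.39, adjusted p = 0.0064). It was 1.17 for Cyp26b1 (SE 0.29, adjusted p = 0.0046) and 1.75 for Stra6 (SE 0.42, adjusted p = 0.0041), which became −0.84 and −0.23 Sertoli-scaled, where Aldh1a1, Aldh1a3 and Rara were at 0.78, 0.12 and 0.31 and not called. Aldh1a2 and Cyp26a1, negative with TMM already, were at −4.21 and −3.54 and called under that scaling, which moved all 7 values down. The call of Cyp26a1 was lost in 10 of the 12 fits that left out 1 library, those of Cyp26b1 and Stra6 in 5 each, and the count was 4 without WT P8 replicate 2, INSL3-KI P8 replicate 2 or INSL3-KI P40 replicate 2. Over the same libraries 7 of 8 Sertoli cell genes were called with a positive interaction and 7 of 7 spermatid genes with a negative one. Their part in these values was not tested.

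At P8 the difference between INSL3-KI and WT also depended on the tissue. The log2 difference in gubernaculum less that in testis was 3.92 for Aldh1a1 (SE 0.32, adjusted p = 6.2e-06) and 1.49 for Rdh10 (SE 0.22, adjusted p = 0.00031). It was −3.13 for Aldh1a2 (SE 0.22, adjusted p = 2.8e-06) and −8.27 for Cyp26a1 (SE 0.94, adjusted p = 5.9e-05), the latter resting on 2 counts in INSL3-KI gubernaculum. These 4 of 10 were called, where 21.8% of 16626 genes were called. Within gubernaculum Aldh1a1 was called higher and Aldh1a2 lower in INSL3-KI than in WT, while in testis the values were −0.59 and 0.99 on the log2 scale and neither was called.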

How the results depend on the processing

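Of 103 gene results, recomputed 1489 times in all, none reversed under DESeq2, no filter, library size alone, limma, 1 fit, the replicate block or a left-out replicate. Sertoli-scaled, 22 of 70 reversed: against WT, in INSL3-KI at P23 Aldh1a1 −0.45, Cyp26a1 −0.33 and Rara −0.18; in INSL3-KO at P23 Aldh1a3 −0.19, Cyp26b1 −0.71, Stra6 −1.45, Rara −1.16 and Rarg −1.28; in INSL3-KI at P40 Aldh1a3 −0.25, Cyp26a1 −1.62, Cyp26b1 −0.74, Stra6 −1.14, Rara −0.65 and Rarg −1.06; in INSL3-KI against INSL3-KO at P23 Rdh10 0.16; in WT P40 against P8 Aldh1a1 0.50, Aldh1a3 0.79, Rdh10 0.78 and Rarg 0.56; and in the interaction with age, a scaling added after seeing the data, Cyp26b1 −0.84, Stra6 −0.23 and Rarg −1.25. The cause was not tested. The median log2 difference of all genes was then −0.20 and −0.40 at P8 (INSL3-KI, INSL3-KO), −1.16 and −2.61 at P23, −2.13 at P40 and 1.80 in WT with age, where with TMM it lay between −0.03 and 0.09.

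The number of the 10 genes called changed by more than 1.5 times as follows. For INSL3-KI at P8, 1 became 2 by library size or either limma fit, where 5.02–6.74% of all genes were called. It became 0 Sertoli-scaled or with the block, where 3.18% and 0.0382% of all genes were called. For INSL3-KI at P23, 6 became 3 with the block and 2 Sertoli-scaled, beside 9.62% and 14.2% of all genes. INSL3-KI at P40 gave 8 in 1 fit, where 50.4% of all genes were called. Sertoli-scaled, WT with age gave 3, beside 66.7% of all genes, and INSL3-KI from P8 to P23 gave 0, beside 0%. INSL3-KI from P23 to P40 gave 2 in 1 fit, and INSL3-KO with age 8 Sertoli-scaled. In gubernaculum, INSL3-KO at P8 gave 2 by limma on log2(FPKM + 1) and 3 in 1 fit, and INSL3-KI at P23 gave 1 by DESeq2 or in 1 fit. With a replicate left out the counts ranged 0–1 and 2–3 at P8 (INSL3-KI, INSL3-KO), 0–6 and 7–7 at P23, 1–4 between the mutants, 4–6 at P40, 6–8 in WT with age, 0–3 and 0–0 in INSL3-KI with age, 5–5 in INSL3-KO with age, 4–5 for each mutant in P8 gubernaculum, 0–1 in P23 gubernaculum, 6–7 between tissues, and 4–6 and 4–5 for the interactions. A left-out replicate leaves a group with 2 libraries. Calls over all genes then ranged 0–931 for INSL3-KI at P8, 372–4073 for INSL3-KI at P23 and 0–4535 for INSL3-KI from P8 to P23. Shares of all genes called were 10.2–17.9% for INSL3-KO at P8, 61.9–63.6% for INSL3-KO at P23 and 21.7–50.3% between the mutants. They were 32.9–58.9% for INSL3-KI at P40 and 55.1–60.1% in WT with age. Where no share is given, a count does not set the 10 genes apart from others.

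Replicate numbers are shared by the groups, but in no comparison did all 3 same-numbered pairs deviate together, so the numbers were not taken to pair the libraries. The replicate block left 97 of 103 gene results on the same side of the threshold; the calls lost were Cyp26a1 in INSL3-KI at P8 (adjusted p = 0.018), Rara, Rarb and Rarg in INSL3-KI at P23 (0.019, 0.016 and 0.013), Cyp26b1 in INSL3-KI gubernaculum at P8 (0.031) and Cyp26a1 in the age interaction (0.014).

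Over all genes, calls for INSL3-KI at P8 numbered 987, but 2140 by DESeq2, 2161 in 1 fit and 6 with the block; for INSL3-KI at P23 3428, but 1598 with the block; and for P23 gubernaculum 387, but 2219 by DESeq2. Depth limits Rarb and Cyp26a1 in the groups with under 10 counts per library.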
